A study of Drosophila melanogaster with 8 samples.

Results

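The γH2Av-enriched regions at the centromere end of the assembled chromosome arms 2L, 3L, X and 3R were described in cultured Drosophila S2 cells. Peaks of the 4 ChIP libraries were merged wherever they overlapped by at least 1 bp, and merged regions were kept when they started in a window at the centromere end of the arm in the dm3 assembly. The windows were 1.98 Mb long on 2L, 2.03 Mb on 3L, 2.02 Mb on X and 2.00 Mb on 3R. This rule used position alone and found 326 of 4731 merged regions (6.89%), with 116 on 2L, 54 on 3L, 48 on X and 108 on 3R. Together the windows spanned 8.03 Mb, and the rest of the same arms, called the arm interior here, held 2953 regions.

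The series compared WT cells with cells depleted of dH1, the single somatic linker histone of Drosophila, in order to locate γH2Av. RNAi cells were kept for 8 days with 100 µg of double-stranded RNA against dH1, added on days 1, 4 and 7. WT cells were untreated in the ChIP-seq, so that an effect of double-stranded RNA as such and an effect of dH1 loss cannot be told apart. Each condition had 2 independent biological replicates, each with a γH2Av ChIP and an input, which makes 8 samples of 1 cell line. Peak lists measure neither the degree of depletion nor read depth, and they cannot test the identity of the cells.

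γH2Av is the phosphorylated form of the histone variant H2Av, the fly counterpart of the mammalian variants H2A.Z and H2A.X. It forms around DNA breaks, and the kinase Jil1 places the same phosphate at promoters of active genes. The sequence next to centromeres passes from gene-rich euchromatin into pericentric heterochromatin, which is rich in transposons and satellite repeats and packed with H3K9-methylated nucleosomes and HP1a. Linker histone is known to be needed for the silencing of many of these repeats. Every alignment site of a read had been kept when these peaks were made, so a repeat's reads counted at each of its copies.

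The number of centromere-proximal peaks was 269 in WT replicate 1, 233 in WT replicate 2, and 281 and 236 in dH1 RNAi replicates 1 and 2. The spread within a condition was thus wider than the gap between conditions. The mean was 251 ± 25.5 (SD, n = 2) in WT and 258.5 ± 31.8 (SD, n = 2) in dH1-depleted cells, a difference of 7.5 peaks (exact permutation test, two-sided, p = 0.667). The full lists held 3761, 3925, 3733 and 3037 peaks in the same order of libraries.

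As a share of each list, centromere-proximal peaks made up 7.15% (95% Wilson interval 6.37 to 8.02) in WT replicate 1 and 5.94% (5.24 to 6.72) in WT replicate 2. The share was 7.53% (6.72 to 8.42) in dH1 RNAi replicate 1 and 7.77% (6.87 to 8.78) in dH1 RNAi replicate 2. Both dH1 RNAi libraries lay above both WT libraries, and the intervals of WT replicate 1 and both dH1 RNAi libraries overlapped. The mean was 6.54 ± 0.86 in WT and 7.65 ± 0.17 in dH1-depleted cells (SD, n = 2 each), a difference of 1.10 percentage points whose exact permutation p of 0.333 is the smallest that 6 labelings of 4 libraries allow. The Benjamini-Hochberg value was 0.833 over 5 comparisons. Without WT replicate 2 the difference was 0.50 percentage points.

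Covered length and rank overlapped between conditions, and width did not. Centromere-proximal peaks covered 1008 and 845 kb in WT replicates 1 and 2, and 1006 and 875 kb in dH1 RNAi replicates 1 and 2 (difference 13.9 kb, exact permutation p = 1). Their median width was 2834 and 2853 bp in WT and 2695 and 2813 bp in dH1-depleted cells, lower in both dH1 RNAi libraries by 89.5 bp on average (exact permutation p = 0.333). Scores were compared as percentiles, the share of a library's own list that scored lower, since the caller's score grows with depth. The median percentile of centromere-proximal peaks was 59.1 and 52.2 in WT and 53.0 and 59.5 in dH1-depleted cells (exact permutation p = 0.667), and the conditions interleaved.

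The arms fell into a dense and a sparse pair. On 2L the window held 58.7 merged regions per Mb against 33.7 in the interior of the arm, and on 3R it held 54.0 against 33.8. On 3L the window held 26.6 regions per Mb against 32.8, and on X 23.8 against 31.0. Windows of the same length at the telomere end of the arms held 38.4 regions per Mb on 2L, 44.3 on 3L, 33.2 on X and 23.5 on 3R. The order of arms at the centromere was therefore not that at the telomere. Pooled over the 4 arms, the density of peaks in the windows exceeded that of the interior by 7.14 peaks per Mb in WT replicate 1, and 7.14 and 6.99 in dH1 RNAi replicates 1 and 2, and differed from it by -1.42 in WT replicate 2. The mean difference was 4.96 ± 4.26 (SD, n = 4 libraries; exact permutation of signs, two-sided, p = 0.25), with 3 of 4 libraries in that direction. For the 50% of each window nearer the centromere, set against all the rest of the arm, the mean difference was 0.17. Without 2L it was 1.49.

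**Figure D1:**
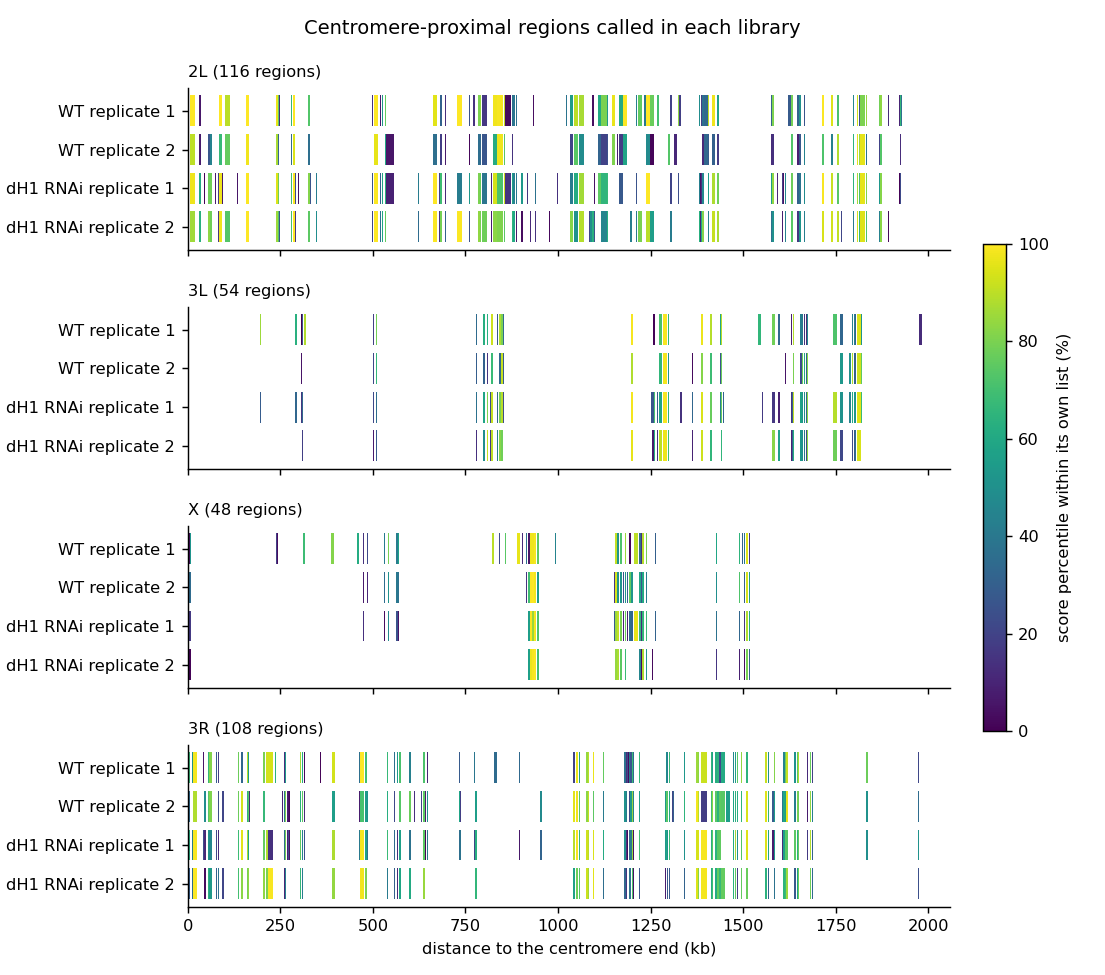
Each mark is a merged centromere-proximal region called in that library, drawn at its distance in kb from the centromere end of the arm (marks are at least 3 kb wide), with colour for the percentile of its best peak within the library's own list. Regions fill 2L and 3R, whereas 3L and X hold wide empty stretches, and the inner 500 kb of X is marked mainly in WT replicate 1.

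Empty stretches set the sparse arms apart on the map of regions by distance. Distance was counted from the highest peak end on 2L, 3L and X, and from the first base on 3R. The paper lists partly assembled pericentromeric heterochromatin as sequences separate from the arms. Distances therefore run along the arm sequence alone and do not reach the centromere itself. X had no region in any library in the 498 kb next to the outer edge of its window. Between regions of a window, the 2 longest stretches without one on 3L were 345 kb (chr3L:23333722-23678808) and 268 kb (chr3L:23752600-24020318). X had further stretches of 251 kb (chrX:21594304-21844897) and 232 kb (chrX:22177079-22408773). The longest on 2L was 149 kb and the longest on 3R was 144 kb. Within the filled parts neighbours were about as close on the sparse arms as on the dense ones, with a median gap of 5.12 kb on 2L, 5.94 kb on 3L, 5.12 kb on X and 3.93 kb on 3R.

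Centromere-proximal peaks were wider than interior peaks in every library. The median exceeded that of interior peaks by 316 bp in WT replicate 1, 404 bp in WT replicate 2, and 319 bp and 413 bp in dH1 RNAi replicates 1 and 2. The mean difference was 363 ± 52.7 bp (SD, n = 4 libraries), in 4 of 4 libraries, and the exact permutation of signs gave p = 0.125, the smallest that 4 libraries allow (Benjamini-Hochberg 0.188 over 3 comparisons). They also ranked higher in their own lists, by 6.14, 2.17, 3.19 and 9.85 percentile points in the same order (mean 5.34 ± 3.45, SD, n = 4 libraries; exact permutation p = 0.125, Benjamini-Hochberg 0.188). Both signs were the same in WT and dH1-depleted cells. For the 50% of each window nearer the centromere, set against all the rest of the arm, the mean differences were 207.5 bp and 1.05 percentile points. Without 2L they were 130 bp and 6.17 percentile points.

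Regions were widest on 2L. Merged regions there had a median width of 3830 bp against 2597 bp in the interior of that arm. The medians were 3112 bp against 2618 bp on 3L, 2787.5 bp against 2225 bp on X and 2795.5 bp against 2830.5 bp on 3R, so that 3R alone had no excess. Of all centromere-proximal regions 77 of 326 (23.6%) were at least 5000 bp wide, where the background over all 4731 regions was 16.2%. The share was 37.1% on 2L, 24.1% on 3L, 16.7% on X and 12% on 3R, so that 3R lay below the background and X near it. Without WT replicate 2 the share on 2L was 36.8%. Regions of at least 10000 bp numbered 27 (8.28%), of which 19 were on 2L, against 49 of 2953 interior regions (1.66%). Merging over libraries can only widen a region, and a region called by fewer libraries has fewer peaks to merge.

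**Figure D2:**
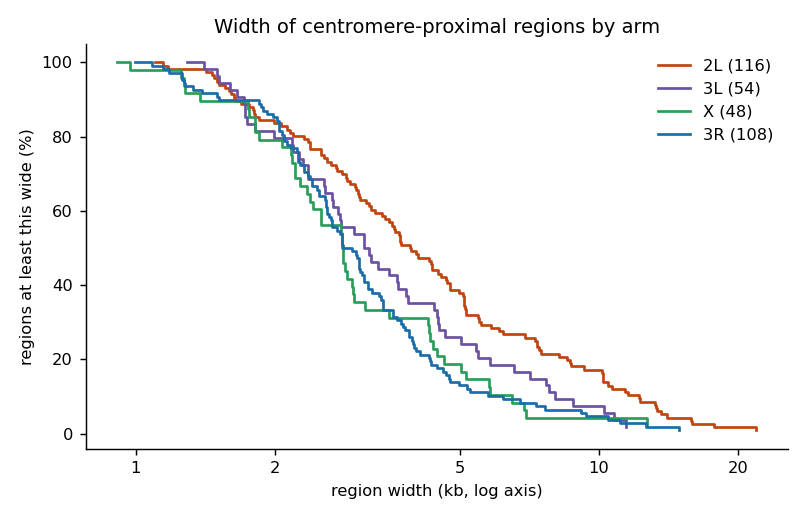
Share of the centromere-proximal regions of each arm (%) that are at least as wide as the value on the log axis (kb), with the number of regions in brackets. The curve of 2L lies above the others beyond 3 kb and reaches 37.1% at 5 kb, where 3R is at 12%.

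Wide regions were not all strong ones. The widest of all, chr2L:22420150-22442037 (21888 bp), was called in WT replicate 2 and dH1 RNAi replicate 1 alone, at percentiles 5.52 and 9.20. The widest on 3R, chr3R:1386544-1401449 (14906 bp), was called in all 4 libraries at percentiles 91.8, 17.9, 98.6 and 98.4 in WT replicates 1 and 2 and dH1 RNAi replicates 1 and 2. WT replicate 2 stood far below the other 3 libraries there. The widest on X, chrX:21199054-21211723 (12670 bp), was called in replicate 1 of each condition at percentiles 90.2 and 96.6, and the widest on 3L, chr3L:22776774-22788194 (11421 bp), in all libraries but WT replicate 2.

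Called in all 4 libraries were 158 of 326 regions (48.5%, 95% Wilson interval 43.1 to 53.9), near the background of 49.0% over all regions. By arm these were 64 of 108 on 3R (59.3%), 27 of 54 on 3L (50%), 48 of 116 on 2L (41.4%) and 19 of 48 on X (39.6%). In the interiors the shares were 60.8% on 3R, 54.5% on 3L, 57.1% on 2L and 40.4% on X. The largest shortfall against the interior was thus on 2L. A further 62 regions (19.0%) were called in 1 library, where the background was 23.3%.

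Some shared regions ranked near the top of every list. The region chr2L:22812340-22819851 (7512 bp, 157 kb from the centromere end) ranked 5 of 3761 in WT replicate 1, 87 of 3925 in WT replicate 2, 16 of 3733 in dH1 RNAi replicate 1 and 7 of 3037 in dH1 RNAi replicate 2. The region chr2L:22464216-22474344 (10129 bp) ranked 5, 148, 28 and 1 in the same order. Rank 5 in WT replicate 1 is a tie of both regions at a score of 3100, which 18 peaks of that list reached or passed, and the first rank in dH1 RNAi replicate 2 is at 3100 too. Both were near the top of 3 lists and lower in WT replicate 2. On X the leading region chrX:21474501-21479674 (5174 bp) ranked 48, 64, 63 and 20, and on 3L chr3L:23236835-23247105 (10271 bp) ranked 34, 72, 34 and 83. These 2 regions kept a similar place in every list. On 3R the leading region by its worst rank, chr3R:1080980-1083780 (2801 bp), ranked 395, 354, 392 and 433, while chr3R:14885-24048 (9164 bp), 14.9 kb from the centromere end, ranked 70, 465, 37 and 22.

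Among the top 5% of each list by score, centromere-proximal peaks made up 15.4% in WT replicate 1, 7.14% in WT replicate 2, and 12.3% and 11.8% in dH1 RNAi replicates 1 and 2. Their share of the whole list was 7.15, 5.94, 7.53 and 7.77%. The top share was above that of the whole list in each library. Its 95% Wilson interval lay above the whole-list share in WT replicate 1 (11.0 to 21.3) and dH1 RNAi replicate 1 (8.34 to 17.8), and included it in WT replicate 2 (4.30 to 11.6) and dH1 RNAi replicate 2 (7.62 to 17.9). Peaks on 2L supplied 17 of the 29 in WT replicate 1, 5 of 14 in WT replicate 2, 11 of 23 in dH1 RNAi replicate 1 and 6 of 18 in dH1 RNAi replicate 2.

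WT replicate 2 stood apart on 2L in calls and in rank. It called 62 of the 116 regions there (53.4%), whereas WT replicate 1 called 81 (69.8%), dH1 RNAi replicate 1 called 90 (77.6%) and dH1 RNAi replicate 2 called 84 (72.4%). The median percentile of its proximal peaks on 2L was 34.9, against 60.8 in WT replicate 1, and 51.9 and 61.1 in dH1 RNAi replicates 1 and 2. Its interior peaks on 2L had a median percentile of 53.0, and those of the other libraries lay between 50.4 and 56.5. The lower level in WT replicate 2 was thus seen in the window and not in the interior of the same arm. On 3R its median percentile was 58.2 in the window and 58.4 in the interior. On 3L it also called the fewest regions, 34 of 54 (63.0%). WT replicate 1 called 79.6% there, and dH1 RNAi replicates 1 and 2 called 92.6% and 72.2%. The median percentile of WT replicate 2 on 3L was 52.8 in the window and 49.0 in the interior.

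**Figure D3:**
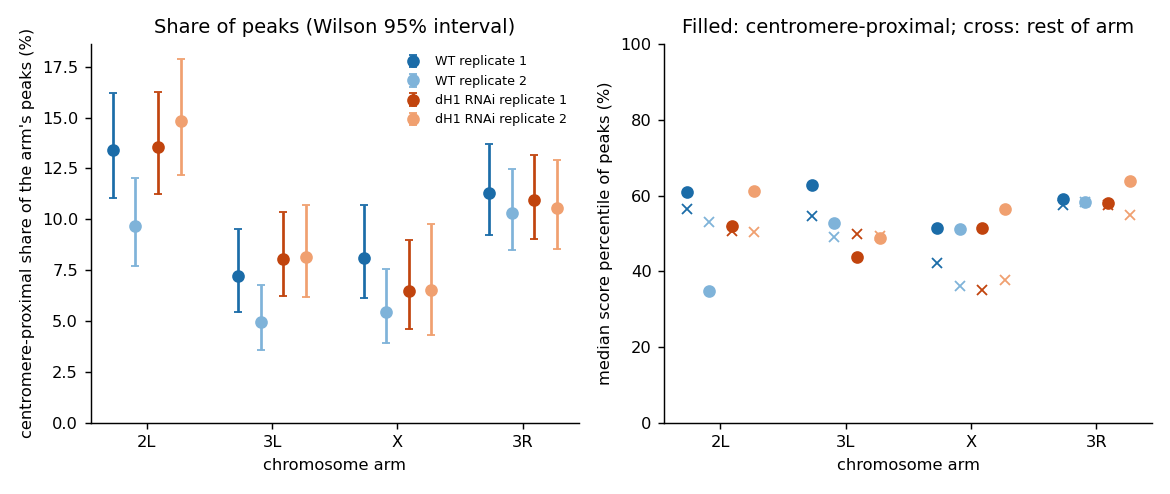
Left, share of each arm's peaks that are centromere-proximal (%) with its 95% Wilson interval, by library. Right, median score percentile (%) of the centromere-proximal peaks (filled) and of the arm interior (crosses). On 2L WT replicate 2 has the lowest share (9.66%) and a median percentile of 34.9, and on 3R the 4 libraries lie between 10.3 and 11.3%.

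In regions called in all 4 libraries the ranks told the same of 2L. WT replicate 2 gave the lowest percentile of the 4 libraries in 36 of 48 such regions on 2L (75.0%), in 9 of 27 on 3L, 5 of 19 on X and 14 of 64 on 3R. In the interior of 2L it did so in 56 of 404 regions (13.9%). The window also exceeded the interior on 3L (33.3% against 17.2%) and on X (26.3% against 10.2%), but not on 3R (21.9% against 22.9%). Over the 158 shared regions of all 4 arms the rank correlation of WT replicate 2 with WT replicate 1 was 0.49, while that of the dH1 RNAi replicates with each other was 0.82 and that of WT replicate 1 with dH1 RNAi replicate 1 was 0.76. In the interior the same 3 correlations were 0.58, 0.83 and 0.71, so that WT replicate 1 was nearer to dH1 RNAi replicate 1 than to its own replicate there too. WT replicate 2 correlated with dH1 RNAi replicate 1 at 0.55 in the windows and at 0.77 in the interior. These correlations are descriptions over regions that share libraries.

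Both dH1 RNAi percentiles exceeded both WT percentiles in 25 of the 158 shared regions (15.8%), where the background over all 2320 shared regions was 9.14%, and both were below in 24 (15.2%) against a background of 24.6%. On 2L, 13 of 48 shared regions had both dH1 RNAi percentiles above and 2 had both below. On X 2 of 19 were above and 7 below, on 3L 4 of 27 and 2, and on 3R 6 of 64 and 13. The lean toward dH1-depleted cells was therefore largest on 2L. Against the interior of the same arm, 3L and X leaned that way too. On 3L 14.8% were above and 7.41% below, where the interior gave 8.71% and 31.1%. On X the values were 10.5% and 36.8% against 4.69% and 44.1%. On 3R they were 9.38% and 20.3% against 10.7% and 17.4%. The lean on 2L was smaller against WT replicate 1 than against WT replicate 2. Against WT replicate 1 alone both dH1 RNAi percentiles were higher in 17 (35.4%) and lower in 17 of the 48 regions of 2L, where the interior of 2L gave 26.2% higher and 50.7% lower. Against WT replicate 2 alone they were higher in 38 (79.2%) and lower in 5 (10.4%), where the interior of 2L gave 18.6% and 58.7%.

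**Figure D4:**
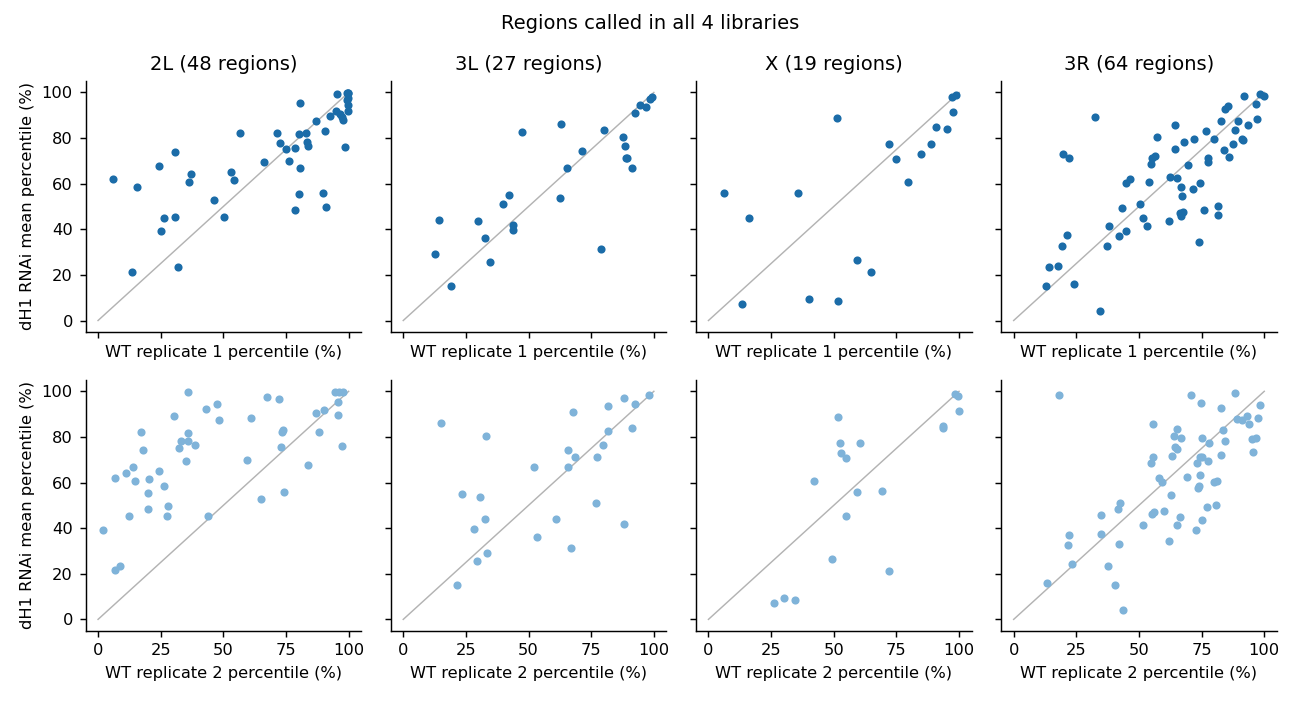
Mean percentile (%) in the dH1 RNAi libraries against the percentile in WT replicate 1 (top) and in WT replicate 2 (bottom) for regions called in all 4 libraries, 1 point a region, with the line of equality. On 2L the points scatter around the line against WT replicate 1 and lie mostly above it against WT replicate 2.

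A call in every library but WT replicate 2 was another pattern that was more frequent than over all regions. It held for 22 regions (6.75%), where the background was 1.86%, and these were 25% of the 88 such regions in the whole set. They comprised 7 of 54 regions on 3L (13.0%), 10 of 116 on 2L (8.62%), 5 of 108 on 3R (4.63%) and none of the 48 on X. In the interiors the shares were 1.49% on 3L, 1.56% on 2L, 1.94% on 3R and 0.32% on X. Their median percentile was 38.0 in WT replicate 1, and 32.0 and 49.3 in dH1 RNAi replicates 1 and 2. Their strength varied widely, from 0.44 to 99.7 in WT replicate 1. The range was 8.61 to 89.0 in dH1 RNAi replicate 1 and 6.67 to 99.5 in dH1 RNAi replicate 2. A call in every library but dH1 RNAi replicate 2, which has the shortest list, held for 21 regions (6.44%), below the background of 8.10%.

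Regions called in both dH1 RNAi libraries and in neither WT library, termed dH1-only, numbered 16 (4.91%, 95% Wilson interval 3.04 to 7.82), where the background was 1.06%. They made up 32% of the 50 dH1-only regions of the whole set, with 12 on 2L, 4 on 3L and none on X or 3R. On 2L they were 10.3% of the window's regions against 3 of 707 in the interior (0.42%), and on 3L 7.41% against 0.68%. They were weak peaks. The percentile ran from 4.11 to 53.5 (median 25.2) in dH1 RNAi replicate 1 and from 3.24 to 49.2 (median 15.2) in dH1 RNAi replicate 2, and 15 of the 16 lay under the middle of both lists.

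The leading dH1-only region, chr2L:21359995-21363038 (3044 bp), had percentiles of 45.0 and 44.2 in dH1 RNAi replicates 1 and 2. The next, chr2L:22628793-22631170 (2378 bp), had 42.1 and 49.2, and chr2L:22352691-22355039 (2349 bp) had 41.6 and 34.9. All 3 lay below the middle of both lists, as did chr2L:22037623-22040133 (2511 bp), at 37.7 and 14.8. Of the 4 on 3L, chr3L:22896884-22900222 (3339 bp) led at 30.5 and 29.6. The others there, at chr3L:23262403-23264127, chr3L:23274757-23276495 and chr3L:23712483-23715597, had percentiles of 23.1 to 28.4 in dH1 RNAi replicate 1 and 6.44 to 16.4 in dH1 RNAi replicate 2. Of the 16 regions, 7 lay within 1 kb of a region that a WT library called.

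The distance of dH1-only regions from the background was smaller without WT replicate 2. When that library was left out, regions called in both dH1 RNAi libraries and not in WT replicate 1 were 23 of 319 (7.21%) in the windows and 6.10% of all regions. When WT replicate 1 was left out they were 39 of 304 (12.8%) in the windows and 3.26% of all regions. On 2L alone the share without WT replicate 2 was 14 of 114 (12.3%) against 4.99% in the interior, so that a difference in the same direction was still present on that arm. On 3L it was 5 of 54 (9.26%) against 6.06%. The other 2 arms went the other way, with 0 of 48 against 2.81% on X and 4 of 103 (3.88%) against 7.48% on 3R. With peaks of a score of at least 100 alone, 8 regions in the windows were dH1-only (2.90%), 6 of them on 2L, against 0.79% of all regions. Of these 8, 4 were dH1-only in the full lists too, and the other 4 had a WT peak below that score.

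WT-only regions, called in both WT libraries and neither dH1 RNAi library, numbered 6 (1.84%), where the background was 3.64%. The 3 on 2L were each over 10 kb wide. The strongest, chr2L:21822179-21832397 (10219 bp), had percentiles of 96.6 in WT replicate 1 and 80.7 in WT replicate 2, and chr2L:21790339-21800810 (10472 bp) had 99.4 and 58.6. Both were strong calls in WT replicate 1 with no call in either dH1-depleted library, and the second was nearer the middle of the list in WT replicate 2. Of the 6 WT-only regions, 2 lay within 1 kb of a region that a dH1 RNAi library called. The third, chr2L:21572319-21582505 (10187 bp), had 33.7 and 33.2. The 3 on X, at chrX:21500520-21502276, chrX:21930623-21932427 and chrX:22414324-22416130, were 1757 to 1807 bp wide with percentiles of 22.2 to 36.9 in WT replicate 1 and 10.9 to 21.1 in WT replicate 2.

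The median width of WT-only regions was 5997 bp, and that of dH1-only regions was 2363.5 bp. No WT-only region was near its median, since the 3 on 2L were over 10 kb wide and the 3 on X 1757 to 1807 bp. Those on X were narrower than the dH1-only median. Each WT-only region of 2L was wider than the widest dH1-only region, which measured 5559 bp.

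Single-library calls also differed by arm. WT replicate 1 alone called 29 regions (8.90%), where the background was 11.0%, and 13 of them were on X. WT replicate 2 alone called 11 (3.37%) against a background of 8.41%. dH1 RNAi replicate 1 alone called 15 (4.60%) against 2.75%, of which 11 were on 2L and 4 on 3L. The strongest single-library regions were all in WT replicate 1, with chrX:21519512-21526480 (6969 bp) at rank 137, chrX:21588518-21594303 (5786 bp) at rank 387, chr3L:24211904-24218447 (6544 bp) at rank 441 and chrX:22022097-22029001 (6905 bp) at rank 701 of 3761. These were regions with high scores in 1 library and no peak in its replicate.

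In the X window calls were most in WT replicate 1 and fewest in dH1 RNAi replicate 2, which has the shortest list. Of the window's 48 regions, WT replicate 1 called 43 and WT replicate 2 called 32. dH1 RNAi replicate 1 called 31, close to WT replicate 2, and dH1 RNAi replicate 2 called 20. Of the 48, 13 were in the set through WT replicate 1 alone and 1 through dH1 RNAi replicate 2 alone. The 2 WT libraries together made 75 calls and the dH1 RNAi libraries 51, and 23 of this difference of 24 calls lay within 1000 kb of the centromere end. The inner 500 kb held 10 regions, and these libraries called 10, 4, 2 and 1 of them. From 500 to 1000 kb 16 of 16 regions were called in WT replicate 1, 10 in WT replicate 2, and 9 and 5 in dH1 RNAi replicates 1 and 2. Within 1000 kb 12 of 26 regions were called in WT replicate 1 alone. These were in the set only through that library and supplied 12 of the 23 calls. The difference between conditions is thus partly built in, as is the full count of WT replicate 1 in both inner bins. From 1000 to 1500 kb the counts were 14, 15, 17 and 11 of 19. The whole of X had fewer peaks in dH1-depleted cells too, with 555 and 605 in WT and 495 and 322 in dH1 RNAi replicates 1 and 2, and the centromere-proximal share of the peaks of X was 8.11, 5.45, 6.46 and 6.52%.

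**Figure D5:**
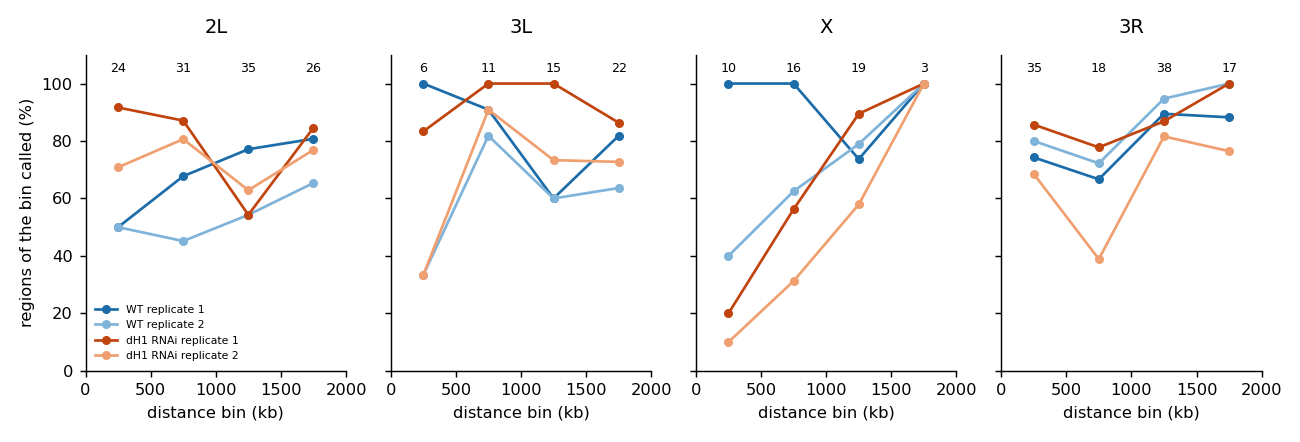
Share of the regions of each 500 kb bin (%) called in each library, by distance from the centromere end (points at bin middles, number of regions above). On X the share in the innermost bin runs from 100% in WT replicate 1 to 10% in dH1 RNAi replicate 2. Of the 10 regions in that bin, 6 are in the set through WT replicate 1 alone. On 3R the libraries run together more closely.

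Across all arms the share of regions called in all 4 libraries was 37.3% within 500 kb of the centromere end (28 of 75), 40.8% from 500 to 1000 kb (31 of 76), 52.3% from 1000 to 1500 kb (56 of 107) and 63.2% from 1500 to 2000 kb (43 of 68). This order was not shared by every arm. On 2L the shares were 37.5, 41.9, 28.6 and 61.5%, on 3L 16.7, 72.7, 46.7 and 50%, on X 10.0, 31.3, 52.6 and 100% and on 3R 48.6, 27.8, 76.3 and 76.5%, where the innermost bin of 3L held 6 regions and the outermost of X held 3. Over single regions the Spearman correlation of distance with the number of libraries that called a region was 0.45 on X (48 regions), 0.23 on 3R (108), 0.06 on 2L (116) and 0.05 on 3L (54), and with width it lay between 0.05 and 0.16 on the 4 arms.

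On 2L the number of calls in the inner 500 kb differed between WT and dH1-depleted cells. There 12 of 24 regions were called in WT replicate 1, 12 in WT replicate 2, and 22 and 17 in dH1 RNAi replicates 1 and 2. Both dH1 RNAi libraries were above both WT libraries in this bin and from 500 to 1000 kb, where the counts were 21, 14, 27 and 25 of 31. From 1000 to 1500 kb they were 27, 19, 19 and 22 of 35, and the groups overlapped. The contrast in the inner bins was chosen from bins on 4 arms after their values were seen and was given no test. A call in any library placed a region in the set. Regions called in dH1 RNAi libraries alone therefore build the contrast in, and how far it goes beyond them was not tested. Of the 24 inner regions, 3 were dH1-only and others were called in dH1 RNAi replicate 1 alone, while 0 were WT-only or in WT replicate 1 alone. Of the 31 from 500 to 1000 kb, 5 were dH1-only, 0 were WT-only and 2 were called in WT replicate 1 alone.

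On 3R the window was close to the interior of the arm in median width and in the share of regions called in all 4 libraries. It was denser, with 54.0 regions per Mb against 33.8. The centromere-proximal share of the peaks of 3R was 11.3% in WT replicate 1, 10.3% in WT replicate 2, and 10.9% and 10.5% in dH1 RNAi replicates 1 and 2, with overlapping groups. No region there was WT-only or dH1-only (0 of 108, 95% Wilson interval up to 3.43%), against 15 and 3 of 876 in the interior. On 3L the corresponding shares of the arm's peaks were 7.21, 4.95, 8.05 and 8.16%, and both dH1 RNAi libraries were above both WT libraries. On 2L they were 13.4, 9.66, 13.5 and 14.8%, in the same arrangement, with WT replicate 1 close to dH1 RNAi replicate 1. Without WT replicate 2 the difference between conditions was 0.76 percentage points on 2L, in place of 2.63, and 0.89 on 3L, in place of 2.03.

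The edges of the windows were set by position, and the regions on either side of them were as follows. On 2L the last region inside, chr2L:21046391-21049606, was called in WT replicate 1 alone (percentile 36.9), and the first outside, chr2L:20925329-20929059, in all 4 libraries (86.5, 82.5, 80.6 and 75.7). On 3L the region inside, chr3L:22548633-22556651, was called in WT replicate 1 alone (12.2) and the one outside, chr3L:22280272-22282790, in all 4 (48.0, 79.0, 62.4 and 61.2). On X the regions inside and outside, chrX:20898041-20900848 and chrX:20394590-20397073, were called in all 4 libraries, as were chr3R:1971564-1974146 and chr3R:2170594-2178204. Inner neighbours of the edge were thus called less widely than outer ones on 2L and 3L and alike on X and 3R. At the other end, the last regions on the arm sequence were chr2L:22975340-22977184 (dH1 RNAi replicate 1 alone) and chr3L:24528065-24531747 (all 4 libraries). On X and 3R they were chrX:22414324-22416130 (both WT libraries) and chr3R:1-1181 (all but WT replicate 1).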

How the data were processed

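γH2Av ChIP-seq peak lists of S2 cells were used, 1 for each of 4 ChIP libraries. Per the study's methods and the labels, the authors aligned reads to dm3 with Bowtie 0.12.5, kept all alignment sites of a read, removed duplicates with sambamba and ran MACS 1.4 on every ChIP separately, with the matching input as control, without pooling replicates. Inputs entered through these calls alone. The deposited score of each peak is that of the authors' caller and rises with depth, so it was used as a percentile within its list. Its lowest value was 50.01. Depth per library is unknown, and lists of 3037 to 3925 peaks set the precision of shares. The 95% intervals (Wilson) express counting error alone. A second set of 4 lists duplicated these and was left out.

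Peaks were merged, placed in windows and compared in Python (3.11.15) using numpy (2.4.6), scipy (1.17.1) and, for plots, matplotlib (3.10.9). A region's percentile in a library is that of its best peak, and tied scores count as 50% lower. Conditions were compared by exact permutation over the 6 labelings of 4 libraries, and windows with arm interiors by exact permutation of signs over 4 libraries, all two-sided, with a threshold of 0.05 and Benjamini-Hochberg values within each family. The steps were tested on simulated lists. The text names, by arm, the best 3 regions of all 4 libraries by worst rank, the widest, the one nearest the centromere and those at the window edge, with up to 8 WT-only and 8 dH1-only regions and 4 single-library regions by rank. Some of the third-ranked are summarised only. Members and rules were chosen with earlier results of these data known. Alternatives were a score of at least 100, lists of equal size, windows of 50% length, 2L left out, other comparison sets, a 50% minimum overlap, a merging distance of 1000 bp, calls in 1 replicate and each library left out. No sequences or genes are given, since a dm3 genome or annotation was not used here.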

Additional observations from a re-analysis of the deposited data

How the results depend on the processing

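The difference between conditions in the centromere-proximal share kept its direction under all alternatives run, at 0.55 points with windows of 50% length and 0.46 without 2L. The differences from the arm interior kept their sign but not their size. With windows of 50% length the comparison set was all the rest of the arm, the outer part of the window included. The differences in density and rank were then near 0 (0.17 peaks per Mb and 1.05 percentile points, exact permutation p = 1 for both). Without 2L the differences in density and width were 1.49 peaks per Mb and 130 bp. The number of proximal peaks (7.5 more in dH1-depleted cells) became -0.5 with a score of at least 100 and -4.5 without 2L. The width difference became 69.5 bp with a score of at least 100. Without 2L the covered length became -37.4 kb and the percentile difference -0.15. Leaving out 1 library in turn moved the number between -15 and 30, the covered length between -67.6 and 95.3 kb and the percentile difference between -2.82 and 4.06, and the cause was not tested. Regions of all 4 libraries numbered 59 of 150 with windows of 50% length (39.3%, against 49.0% of all regions). With lists of equal size they were 126 of 289 (43.6%, against 51.6%). Both shares were below that of all regions, while without 2L it was above (52.4% against 49.0%). WT-only regions numbered 10 with a score of at least 100, 3 with windows of 50% length, 3 without 2L, 3 with a merging distance of 1000 bp and 46 if a call in 1 replicate sufficed, and ran from 10 to 35 as libraries were left out. dH1-only regions numbered 8, 9, 4, 9 and 38 under the same settings, and ran from 23 to 39. The shares over all regions moved too. WT-only regions were 3.62% of members against 4.30% of all regions with a score of at least 100, 1.15% against 3.59% with the merging distance and 14.1% against 23.0% if 1 replicate sufficed. dH1-only regions were 2.90% against 0.79%, 3.46% against 0.90% and 11.7% against 4.92%. With lists of equal size dH1-only regions numbered 17 of 289 (5.88% against 2.10% of all regions). WT-only regions numbered 5 there (1.73% against 2.52%). With windows of 50% length WT-only and dH1-only regions were 2% and 6% of members, and without 2L 1.43% and 1.90%, against 3.64% and 1.06% of all. As libraries were left out, WT-only regions ran from 3.09 to 11.0% of members and from 4.29 to 16% of all regions, and dH1-only regions from 7.21 to 12.8% and from 2.43 to 6.10%. The dH1 RNAi minus WT difference in the share of the arm's peaks, a setting added after the data were seen, ran through 0 as libraries were left out on X (-1.61 points without WT replicate 2 to 1.04 without WT replicate 1) and on 3R (-0.54 without WT replicate 2 to 0.41 without WT replicate 1). The labels do not pair replicates, and the deviations of same-numbered libraries correlated at -0.11 over 158 regions. With a replicate block the mean differences were 7.5 peaks, 1.10 points, 13.9 kb, -89.5 bp and 0.62 percentile points, with exact permutation p of 0.5 for number, share and width, the smallest that 2 pairs allow, and 1 for the others. No test here could pass 0.05 at this size. Depth limits which weak regions pass the caller's threshold, and an absent call does not show absent γH2Av.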
